A study of Mus musculus with 2 samples.

Results

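MHC class I genes and their peptide loading partners are described here on the arrays of a pair of mouse cell lines. The rule took every non-control spot whose gene name was H2-K1, H2-D1 or H2-L, or began with H2-Q, H2-T or H2-M and a digit, and the names B2m, Tap1, Tap2, Tapbp, Tapbpl, Erap1, Psmb8, Psmb9, Psmb10, Psme1, Psme2 and Nlrc5. It found 39 genes of 31829 gene names on the array, read by 49 probes at 76 of 43020 spots. By name, 27 of them were heavy chains and 12 were other members of the pathway.

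The study asked which receptor lets cells bind Ecrg4, a secreted peptide precursor. Parental Ba/F3 cells, an established mouse pro-B line that depends on interleukin-3, were compared with BaF/3 (#BEB1), a variant with Ecrg4-binding ability. The variant was recovered as 1 clone by repeated cell sorting of Ba/F3 cells infected with a retroviral cDNA library, made from RNA of the rat oligodendrocyte precursor line CG4. Both lines were grown with interleukin-3, and each gave RNA for 1 single-colour Agilent array. The clone therefore differs from the parental cells by a viral insert, by sorting and by being a single clone, and these cannot be told apart.

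The deposited files disagree on which array belongs to which cell line. Array A is the one that carries the BaF/3 (#BEB1) name in the table of values and the parental name in the scanner output. Array B carries the names the other way round. The parental column of the table had a Pearson correlation of 0.99999763 with array B and of 0.98228456 with array A over 39429 probes, which are not independent replicates. Each difference below is a log2 value of array A less that of array B. A positive difference means brighter in BaF/3 (#BEB1) if the table is right, and brighter in the parental cells if the scanner output is right. Olr1, which encodes the Ecrg4 receptor that the study cloned, was brighter on array A by 5.01. By the table's assignment that is higher in BaF/3 (#BEB1), the direction the study states for this transcript and the line it was cloned from. No other value was used to settle the conflict, so both assignments are kept here.

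Since each cell line has a single array, there is no replicate check, no test and no p-value, and every count below is a count of sizes. A gene counts as measured if 1 or more of its probes stood well above background on each array, and such probes were averaged to give its difference. Levels are log2 of the signal after division by the array's 75th percentile (1506 for array A, 1080 for array B). Probes well above background made up 49.4% of array A and 49.9% of array B, and 0 were saturated. Among probes printed at 10 spots, the log2 signal of a measured probe had a median SD over its spots of 0.06 (array A) and 0.05 (array B). That spread is within the array and not between cultures.

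The labelled cell type was set against its markers. Of 15 pro-B genes, 3 were measured, namely Cd79b (−2.30), Vpreb1 (−1.39) and Vpreb3 (−1.38), all at least 2-fold brighter on array B, though Vpreb1 (−0.94) and Vpreb3 (−0.92) were short of it with normexp background correction. Another 11, among them Pax5, Ebf1, Rag1 and Rag2, were well above background on neither array, so these defining markers of the pro-B stage were not seen above background. The 3 interleukin-3 receptor genes were all measured, with Csf2rb (−1.86) and Csf2rb2 (−1.60) past 2-fold towards array B and Il3ra at 0.40. Markers of other cell types moved between the arrays too. Of 6 neutrophil genes, 5 were measured and 4 of these were past 2-fold towards array B, where 7.31% of all measured genes were. S100a8 was above background on array B only, brighter there by at least 180-fold. The summed level of the 6, over the 75th percentile, was 0.729 on array A against 22.5 for array B. The summed level of 6 mast cell genes was 1.96 and 6.33, with Cpa3 (−5.44) and Hdc (1.67) measured, in opposite directions. Fcer1a was above background on array B only, brighter there by at least 45.7-fold, and Kit, Mcpt8 and Ms4a2 on neither array. The summed level of 8 macrophage genes was 4.84 and 6.10, with 5 measured and Cd14 on neither. Of the 5, 3 were brighter on array B, among them Cd68 (−1.26), and 2 on array A, among them Adgre1 (0.90). Lyz1 and Lyz2 were above background on array B only, by at least 8.59-fold and 1.76-fold. The summed level of 6 T and NK genes was 3.59 and 3.11, with 3 measured and Cd8a and Ncr1 on neither. All 3 were brighter on array A, namely Cd3d (1.27), Cd3e (0.22) and Lck (0.19). Of these only Cd3d was past 2-fold, and with normexp background correction it was not. Cd3g was above background on array B only, by at least 1.47-fold. Their part in the class I values was not tested. In bulk RNA, fewer cells that make a transcript and less transcript per cell cannot be told apart.

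MHC class I molecules show peptides from inside a cell on its surface. The proteasome, and its interferon-induced form the immunoproteasome, cuts proteins into peptides, and the activator PA28 opens its entrance. The Tap1 and Tap2 transporter carries the peptides into the endoplasmic reticulum, where Erap1 trims them and tapasin (Tapbp), with other chaperones, loads them onto a heavy chain paired with the light chain β2-microglobulin (B2m). The classical mouse heavy chains are encoded at K, D and L, and the Q, T and M regions of the same chromosome hold many related non-classical genes. Nlrc5 is a transactivator that drives heavy chain genes, B2m, Tap1 and the immunoproteasome gene Psmb9 together.

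Heavy chain genes resemble each other, so the probes that read them were compared first. Among 1165 pairs of probes of different members, 3 shared a run of at least 20 bases and 8 shared a run of at least 14. The probes of H2-T3-like and H2-T18 shared 34 bases and those of H2-T3 and H2-Q10 shared 22, and in each of these pairs neither probe was above background. Of the pairs that were measured, the closest is shown with the shared run in capitals, together with a shorter run of 19 bases between H2-Q10 and H2-Q2.
H2-K1: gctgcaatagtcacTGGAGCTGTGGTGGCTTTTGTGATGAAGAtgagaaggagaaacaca
H2-T23: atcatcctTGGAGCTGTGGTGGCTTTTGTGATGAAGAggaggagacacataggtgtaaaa
H2-Q10: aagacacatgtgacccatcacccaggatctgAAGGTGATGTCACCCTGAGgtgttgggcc
H2-Q2: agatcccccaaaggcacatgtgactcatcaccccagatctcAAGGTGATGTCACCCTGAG
Over the 50 bases where the H2-Q10 and H2-Q2 probes overlap when the runs are lined up, 45 were identical. The run that H2-K1 and H2-T23 shared was 29 bases long, so transcripts of either could contribute to both signals, and their separate values are uncertain. In the array's mm9 coordinates the H2-K1 probe lies on the minus strand of chromosome 17 at chr17:34133984-34134043. The mm9 span given for the H2-T23 probe, chr17:36167338-36167574, is longer than the 60 bases of the probe. The H2-Q10 probe lies at chr17:35610036-35610095. The H2-Q2 probe lies at chr17:35460007-35460066, nearer to the H2-Q1 probe at chr17:35461859-35461918 than to the other H2-Q2 probe at chr17:35482113-35482172. The H2-Q5 probe lies among the T region probes, at chr17:36246864-36247298. Where a probe falls within exons and UTRs was not looked up, since no mm9 annotation was used here.

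The probes of H2-T24, of the transporter subunits and of Nlrc5 are shown because the results turn on them. The first 30 bases of each are given, to mark which transcripts were read.
H2-T24, first probe: aatgtaaatagtttacagctcaaggcagac
H2-T24, second probe: aaacctttaatcccaggagacaaagacaaa
Tap2: tcaggataaagattgggaccgttttggact
Tap1: tatttggaagaagttttcgagaaaatattg
Nlrc5, first probe: taaactcacaacactccatatcaaatgatc
Nlrc5, second probe: tggctgaccaagtgtcacttggacctgcca
In mm9 the H2-T24 probes lie at chr17:36143605-36143664 and chr17:36142640-36142699 on the minus strand, the Tap2 probe at chr17:34353116-34353175 and the Tap1 probe at chr17:34330854-34330913, both on the plus strand. The Nlrc5 probes lie on the plus strand of chromosome 8 at chr8:97051105-97051164 and chr8:97030478-97030624. Neither H2-T24 probe, nor those of Tap1 and Tap2, shared a run of 16 bases with the probe of any other gene on the array. The first Nlrc5 probe shared such a run with 1 probe, that of Serpina3b.

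Of the 39 genes, 25 were measured and 14 were well above background on neither array. The 14 were H2-M1, H2-M2, H2-M5, H2-M9, H2-M10.1, H2-M10.2, H2-M10.3, H2-M10.4, H2-M10.6, H2-Q1, H2-Q8, H2-T3, H2-T18 and H2-T3-like. H2-M10 genes are known from the vomeronasal organ, and H2-T3 and H2-T18 encode thymus leukaemia antigens of the gut and thymus. Their signals stayed at or below 16.1 (array A) and 14.7 (array B), under the lowest signals of a probe well above background, 27.6 and 22.9. No member was above background on 1 array only (0 of 39). The alleles of these polymorphic genes in Ba/F3 cells were not compared with the probe sequences, so a dim heavy chain probe does not show that its gene was silent, and heavy chain values hold for the probe's own sequence. Of the 11 M region genes 2 were measured, and of the 7 T region genes 4.

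Of the measured members, 17 were brighter on array B, as were 51.4% of all 14832 measured genes, and 8 on array A, as were 48.6%. At least 2-fold brighter on array B were 5 of 25 members, H2-T24, Tap2, H2-T9, H2-T10 and H2-M11, where 7.31% of all measured genes were. At least 2-fold brighter on array A were 0 of 25, where 3.84% of all measured genes were. With each array scaled to its median these shares of all genes became 4.16% on array B and 8.18% on array A, with 2 members past 2-fold on each. At 1.5-fold, 9 members were brighter on array B and 2 on array A, where 17.6% and 12.5% of all genes were. At 3-fold, 1 member was brighter on array B (H2-T24) and 0 on array A, where 2.25% and 1.05% of all genes were. The median difference of the 25 members was −0.39, beside −0.02 over all measured genes.

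**Figure D1:**
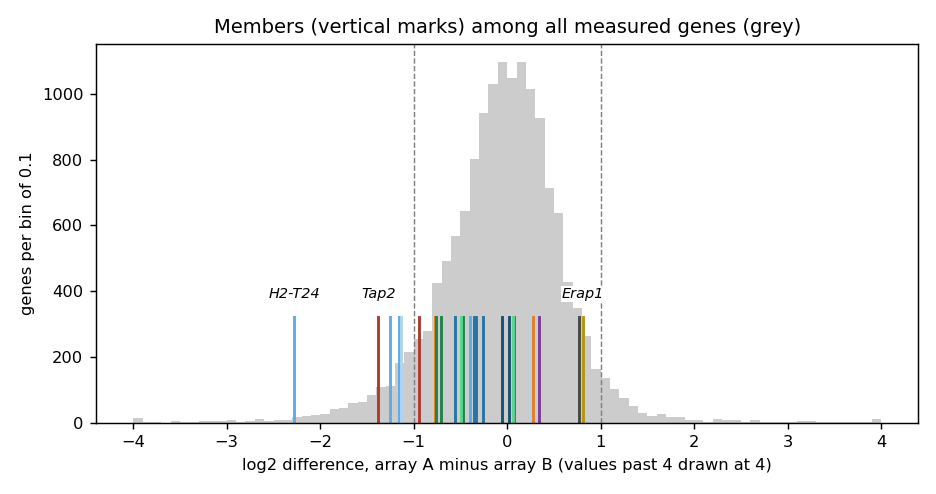
Histogram of the log2 difference, array A minus array B (horizontal axis), of all 14832 measured genes in bins of 0.1 (vertical axis, genes per bin), with the 25 measured members as coloured vertical marks and 2-fold differences as dashed lines. The marks reach from −2.28 (H2-T24) to 0.81 (Erap1), and 17 of 25 lie on the side of array B.

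Of the classical heavy chains, which present peptides to CD8 T cells, H2-D1 was close to equal on the arrays. H2-D1 gave a signal of 4934 on array A and 3683 on array B, a difference of −0.06 after scaling that turns to 0.21 with median scaling. H2-K1 was read by 2 probes that disagreed in sign. Its probe at a single spot gave signals of 16818 and 15447 (−0.36), and its downstream probe, printed at 10 spots, gave 181 to 410 on array A and 114 to 160 on array B, with a mean difference of 0.39. The mean of both probes, 0.02, therefore describes neither. The 10-spot probe also had a wider spread than the other members' repeated probes, with an SD between spots of 0.36 (array A) and 0.16 (array B), and its scaled spot values on the arrays overlapped although the raw signals did not. Its spot-by-spot differences were all above 0, from 0.06 to 1.04.

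Among the Qa region genes 5 of 7 were measured, and their median difference was −0.33. That median is the value of H2-Q5, whose probe lies among the T region probes. Each measured Qa region probe shared a run of 16 bases with a probe under another gene name, so these values may not be separate. H2-Q10, known as a secreted class I molecule of the liver, had 1 measured probe with signals of 2207 on array A and 2334 on array B, a difference of −0.56. Its other probe was not well above background (6.56 and 14.1). The measured probe is the one that matched an H2-Q2 probe at 45 of 50 bases, so H2-Q2 transcripts could contribute to its signal. Whether H2-Q10 itself was read is therefore uncertain. H2-Q2 was read by 2 probes that differed by −0.32 and −0.39. H2-Q5, a transcribed pseudogene in the RefSeq gene table, differed by −0.33. H2-Q6 and H2-Q7 encode Qa-2 antigens. H2-Q6 differed by −0.26 and H2-Q7 by 0.07, and these turn to 0.01 with median scaling and to −0.01 with scaling over measured probes alone. With the 75th percentile scaling no Qa region gene was past 1.5-fold over its measured probes. H2-Q10, the nearest at 1.47-fold, passed it with scaling over measured probes alone. With no filter on dim probes, which adds the dim probe, H2-Q10 was past 2-fold (−1.07).

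The T region held the largest difference. All 4 measured T region genes were brighter on array B, with a median of −1.20, and 3 of them were past 2-fold. H2-T24, a non-classical heavy chain gene, was read by 2 probes, one with signals of 41.9 on array A against 145 for array B and one with 135 against 473. Both probes gave nearly the same difference, −2.27 and −2.29, so H2-T24 was 4.85-fold brighter on array B, and 2.90-fold (−1.53) with normexp background correction. Of all measured genes, 0.627% had differences this far or farther towards array B. H2-T9 gave 651 on array A and 1112 on array B (−1.25, 2.38-fold). H2-T10, a transcribed pseudogene in the RefSeq gene table, gave 848 and 1353 (−1.15, 2.23-fold). H2-T23 encodes Qa-1, which shows leader peptides of other class I molecules to natural killer cell receptors. It gave 45973 and 43307, which is −0.39 after scaling, and it lies between H2-T24 and H2-T9 on the chromosome. The probes of these 4 genes span 113 kb, and within it H2-T24 differed by more than H2-T9 and H2-T10. The H2-T23 value is uncertain, since its probe shares 29 bases with the H2-K1 probe that differed by −0.36.

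In the M region, H2-M3, which presents N-formylated peptides of bacteria and mitochondria, gave 2530 on array A and 1518 on array B, a difference of 0.26. H2-M11 gave 29.98 and 47.2, a difference of −1.13. On array A its signal lay just over the lowest well above background, and with normexp background correction the difference was −0.59.

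**Figure D2:**
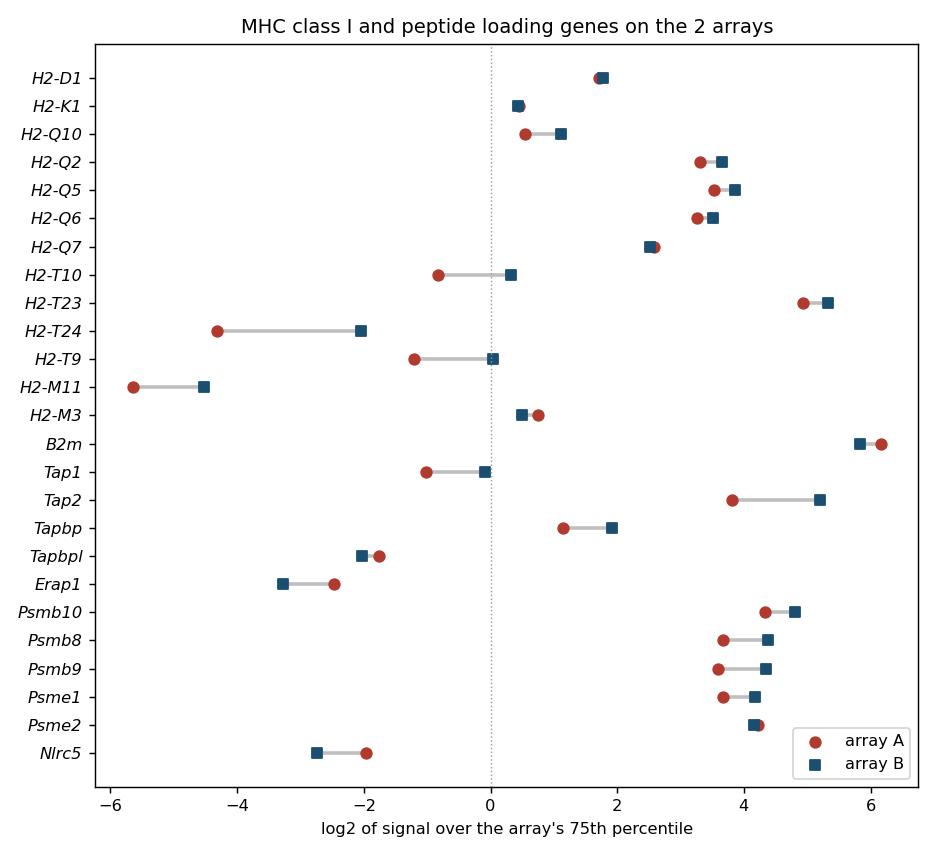
Level of each of the 25 measured members on array A (circles) and array B (squares), in log2 units after division by the array's 75th percentile (horizontal axis), genes on the vertical axis by role, 1 array per symbol. Levels can be compared between the arrays for 1 gene and not between genes. Tap2 is at 3.82 on array A and 5.20 on array B.

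B2m, the light chain that every class I heavy chain needs at the surface, was brighter on array A, opposite to most heavy chains. It gave 108035 on array A and 61430 on array B, a difference of 0.34 (1.26-fold). The difference kept this sign under the 13 alternatives in processing that were run, between 0.26 and 0.60.

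Both subunits of the peptide transporter were brighter on array B. Tap2 gave signals of 21236 on array A and 39653 on array B, a difference of −1.38 (2.60-fold). Tap1, printed at 10 spots, gave 718 to 796 on array A and 982 to 1101 on array B. Its spot-by-spot differences ran from −0.99 to −0.90, with a mean of −0.94 ± 0.03 (SD over 10 spots), so the spots of the arrays did not overlap and Tap1 lay just short of 2-fold. With scaling over measured probes alone, Tap1 passed 2-fold (−1.02).

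**Figure D3:**
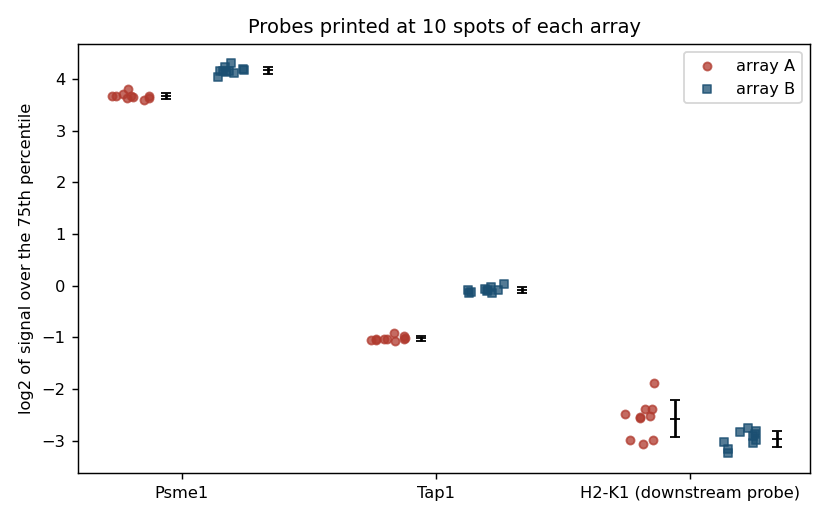
Log2 signal over the 75th percentile (vertical axis) at each of the 10 spots of the repeated probes of Psme1, Tap1 and H2-K1 on array A (circles) and array B (squares), with bars for the mean and SD over spots of 1 array. The groups are apart for Tap1 (−1.02 and −0.08 on average) and Psme1 (3.67 and 4.17) and overlap for H2-K1 on this scale.

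The loading chaperones differed in sign from each other. Tapbp, which encodes tapasin, the bridge between transporter and heavy chain, gave 3335 on array A and 4091 on array B (−0.77, 1.71-fold). Tapbpl encodes TAPBPR, a peptide editor that works without the transporter. It gave 445 and 264, a difference of 0.28 towards array A. Erap1, the aminopeptidase that trims peptides to class I length, gave 272 and 111. Its difference of 0.81 (1.75-fold) was the largest towards array A among the members with the 75th percentile scaling, and it passed 2-fold with median scaling and quantile normalization but fell to 0.37 (1.29-fold) with normexp background correction.

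The 3 catalytic subunits of the immunoproteasome, Psmb8, Psmb9 and Psmb10, were all brighter on array B. Psmb8 gave signals of 19249 on array A and 22612 on array B (−0.71), Psmb9 gave 18207 and 22091 (−0.76), and Psmb10 gave 30393 and 30172 (−0.47). The constitutive subunits that they replace leaned the other way, with 0.30 for Psmb5, 0.37 for Psmb6 and 0.48 for Psmb7. The ratio of immunosubunit to constitutive subunit was thus lower on array A by 2.02-fold for Psmb8 over Psmb5, by 2.19-fold for Psmb9 over Psmb6 and by 1.92-fold for Psmb10 over Psmb7. A division by 1 value per array leaves these ratios as they are, and with quantile normalization the differences of the log2 ratios were −1.04, −1.22 and −0.94.

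The PA28 subunits differed from each other. Psme1, for the α subunit, gave 18093 to 21198 over 10 spots on array A and 17680 to 21317 on array B. The raw signals overlapped, but after each array was scaled the spots did not, with a mean difference of −0.50 ± 0.03 (SD over 10 spots). Psme2, for the β subunit, differed by 0.05 and 0.07 at its 2 measured probes on chromosome 14, and turned below 0 with scaling over measured probes alone (−0.01). A further probe with the Psme2 name, on chromosome 11, was not well above background.

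Nlrc5, the class I transactivator, was brighter on array A while its known targets Tap1 and Psmb9 were brighter on array B, as were Tap2, Psmb8 and Psmb10. Among its other targets, B2m was brighter on array A (0.34), H2-D1 (−0.06) was close to equal, and the H2-K1 probes disagreed (−0.36 and 0.39). Of all 13 measured heavy chains, 10 were brighter on array B and 3 on array A, where 51.4% and 48.6% of all measured genes were. These are not 13 separate values, since several of the probes shared runs with probes of other genes. The signs of H2-D1 and H2-Q6 also turn with median scaling. Nlrc5 itself was read by 2 probes. One probe gave 1666 on array A against 501 for array B (1.25), and the other gave 89.1 and 52.2 (0.29). The mean was 0.77 (1.71-fold), and the probes, which lie 20.6 kb apart, shared a direction but not a size.

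**Figure D4:**
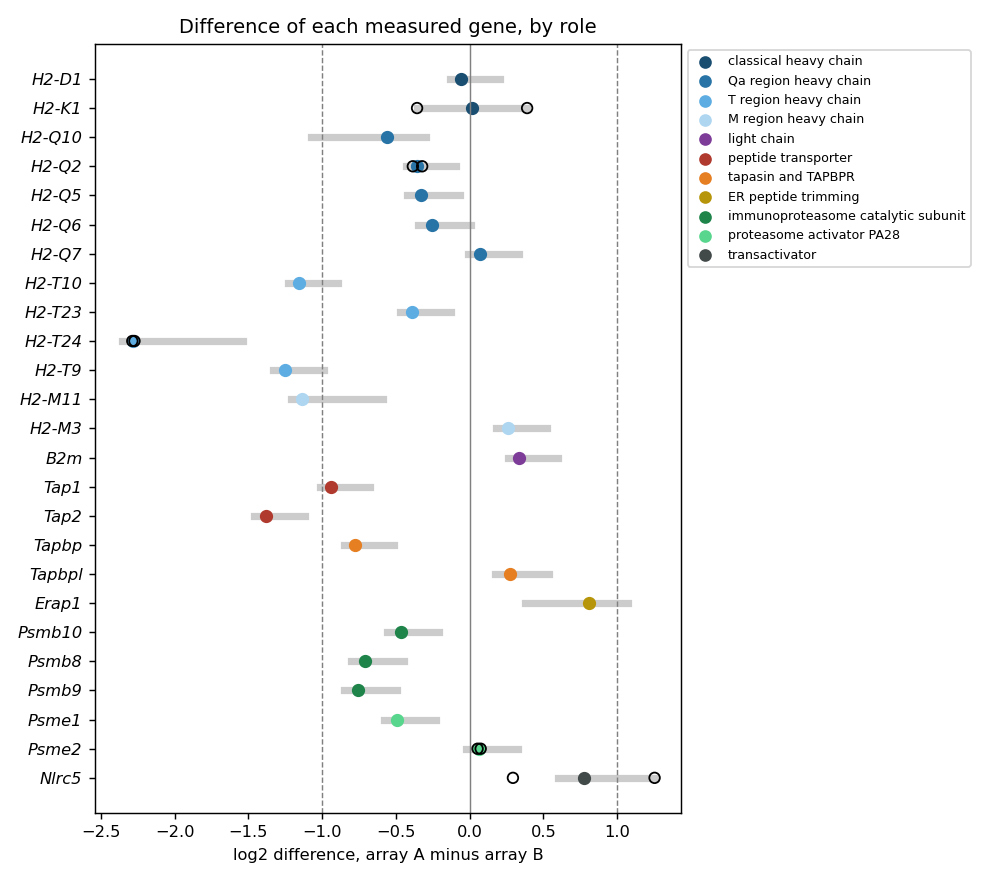
Log2 difference (array A less array B, horizontal axis) of each measured member (filled points, coloured by role), with open circles for single probes of genes read by more than 1, grey bars for the range over 13 alternatives in processing and dashed lines at 2-fold. H2-T24 and Tap2 stay left of the 2-fold line over their whole bar, and the bars of H2-D1, H2-K1, H2-Q6, H2-Q7 and Psme2 cross 0.

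Of the 39 members 30 lie on chromosome 17, with probes over 3.55 Mb of mm9. Tap1, Tap2, Psmb8 and Psmb9 sit together in the class II region, with probes within 34 kb. All 4 were brighter on array B, with differences from −0.71 (Psmb8) to −1.38 (Tap2). Tap1 and Psmb9 point away from each other, and their RefSeq start sites in GRCm38.p6 are 225 bases apart. The stretch between them, at chr17:34187331-34187555 on the plus strand, is shown because both genes were brighter on array B (−0.94 and −0.76). A CCAAT box next to the Psmb9 start is in capitals.
Psmb9 to Tap1: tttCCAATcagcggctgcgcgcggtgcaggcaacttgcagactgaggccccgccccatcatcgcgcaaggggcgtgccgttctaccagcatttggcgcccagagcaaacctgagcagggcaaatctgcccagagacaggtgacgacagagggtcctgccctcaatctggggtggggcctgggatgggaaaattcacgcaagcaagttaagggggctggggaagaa

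Promoter sequences from RefSeq (GRCm38.p6), from 250 bases before to 50 after the start, were matched for 28 of the 39 members, among them neither H2-T24 nor Tap2. Motifs known from class I promoters were searched on both strands. The core of the class I enhancer A site for NF-κB (GGGATTCCC) was in 4 of 28 members (14.3%), H2-K1, H2-D1, H2-Q6 and H2-Q7, and in 112 of 27025 genes (0.414%). The letters GAAANNGAA, a form of the core of an interferon response element, were in 4 of 28 (14.3%), B2m, Erap1, H2-T23 and Psme1, and in 9.76% of genes. Other forms of that element were not searched, so a promoter without these letters is not shown to lack it. A CCAAT box (CCAAT) was in 20 of 28 (71.4%) and in 41.1% of genes, and the cyclic AMP element (TGACGTCA or TGACGCA) was in 0 of 28, and in 2.03% and 2.42% of genes. The enhancer A sites, in capitals, are shown because the stretches around them were so alike in these heavy chain genes. They are followed by the matches to the interferon letters in B2m and H2-T23.
H2-K1: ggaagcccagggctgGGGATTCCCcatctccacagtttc
H2-D1: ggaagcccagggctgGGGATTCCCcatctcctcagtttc
H2-Q6: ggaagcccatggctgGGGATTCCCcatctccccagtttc
H2-Q7: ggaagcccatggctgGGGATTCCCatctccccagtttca
B2m: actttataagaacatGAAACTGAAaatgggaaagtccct
H2-T23: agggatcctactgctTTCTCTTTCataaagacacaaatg
The 4 genes with the enhancer A letters differed by 0.02 (H2-K1), −0.06 (H2-D1), −0.26 (H2-Q6) and 0.07 (H2-Q7). The H2-K1 value is a mean of probes at −0.36 and 0.39. The 4 with the interferon letters differed by 0.34 (B2m), 0.81 (Erap1), −0.39 (H2-T23) and −0.50 (Psme1). A match is a description of letters and not a site of binding. In GRCm38.p6 these stretches are at chr17:34000434-34000472 (minus strand) for H2-K1, chr17:35262909-35262947 for H2-D1, chr17:35424663-35424701 for H2-Q6, chr17:35439008-35439046 for H2-Q7, chr2:122147533-122147571 for B2m and chr17:36032801-36032839 (minus strand) for H2-T23.

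Genes of the pathway outside the rule were read from lists. Of 11 chaperone and translocation genes of the endoplasmic reticulum, 10 were brighter on array A, where 48.6% of all measured genes were. The median of the 11 was 0.46. Past 2-fold was 1, Hspa5 (1.65), the chaperone BiP, where 3.84% of all genes were. Brighter on array B was calreticulin, Calr (−0.12), which turns to 0.15 with median scaling. Pdia3, the partner of tapasin in the loading complex, differed by 0.51, and Sec61a1 (0.05) turns to −0.03 with scaling over measured probes alone. Of 7 peptide-trimming proteases outside the rule, 6 were brighter on array A, beside the same 48.6% of all genes, and 0 were past 2-fold. Thop1 (−0.26) turns to 0 within 0.01 with median scaling. So the chaperones leaned towards array A, where the transporter, tapasin and immunoproteasome leaned towards array B.

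Among 23 regulators of class I genes, 20 were measured. Of these 12 were brighter on array A and 8 on array B, where 48.6% and 51.4% of all measured genes were. Past 2-fold were 0 in either direction, where 3.84% and 7.31% of all measured genes were. With median scaling 18 were brighter on array A and 2 were past 2-fold there, where 8.18% of all genes were. That scaling also moved the median of all measured genes from −0.02 to 0.25, so the 18 is not a trait of the regulators alone. Irf1, an interferon-induced activator of Tap1 and Psmb9, differed by −0.91 and was brighter on array B under the alternatives run. The receptor genes Ifnar2 (0.87), Ifngr2 (0.65) and Ifngr1 (0.56) and the kinase gene Jak1 (0.75) were brighter on array A, and Jak2 differed by −0.62. Another 3 regulators were above background on 1 array only. Among them, Irf8, a myeloid and B cell interferon regulatory factor, was brighter on array B by at least 4.01-fold. Rfx5, a subunit of the factor that Nlrc5 works with, was at least 1.93-fold brighter on array A.

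Class I-like molecules outside the rule were mostly dim. Of 18 listed, 5 were measured, 11 were above background on neither array, among them Cd1d1, and 1 had no probe under its name. H60a was above background on array A only, brighter there by at least 2.04-fold. Of the 5, 4 were brighter on array B, where 51.4% of all measured genes were, and 3 with median scaling. Hfe (0.69) was brighter on array A. Fcgrt, the neonatal Fc receptor (−1.04), and Ulbp1, a ligand of the receptor NKG2D (−1.08), were at least 2-fold brighter on array B, and both fell short of 2-fold with median scaling, quantile normalization and normexp. Mr1, which presents vitamin metabolites, differed by −0.97. Among 11 MHC class II genes 5 were measured. H2-Ob (−3.08), H2-DMa (−1.16) and H2-Oa (−1.11), which serve class II peptide loading, were brighter on array B and Cd74, the invariant chain, on array A (2.32). Ciita, the class II counterpart of Nlrc5, was above background on neither array.

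**Figure D5:**
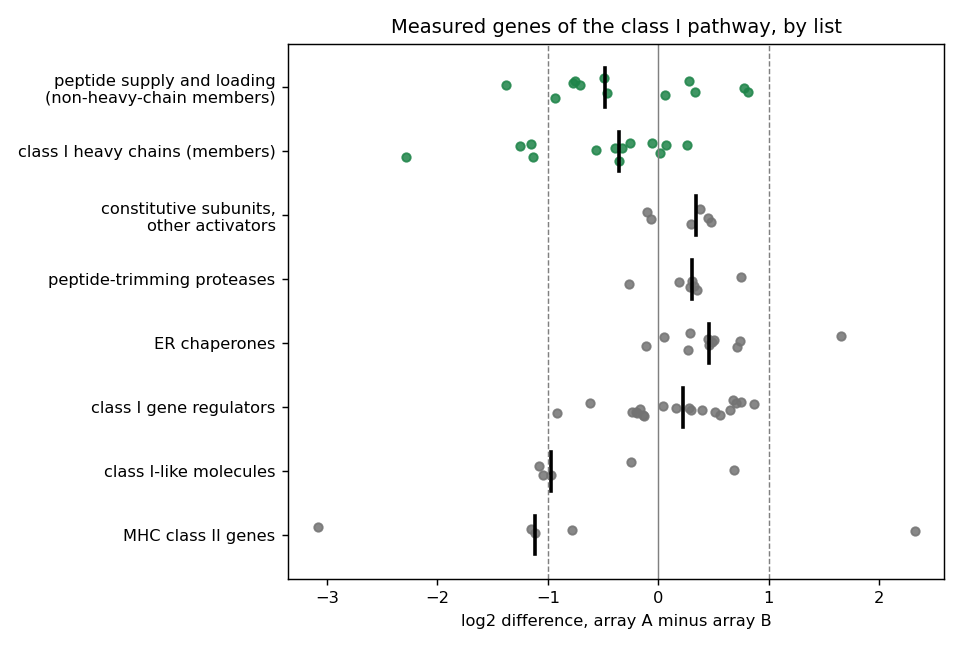
Log2 difference (array A less array B, horizontal axis) of the measured genes of each list (1 point per gene), members in green and other lists in grey, with black bars for the median and dashed lines at 2-fold. Median bars stand at −0.48 and −0.35 for the members, at 0.34, 0.30, 0.46 and 0.22 for the constitutive proteasome, trimming, chaperone and regulator lists, and at −0.97 and −1.11 for the class I-like and class II lists.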

How the data were processed

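Cyanine 3-labelled RNA of each cell line was read on an Agilent whole mouse genome array, 1 per cell line and both on the same slide. The authors deposited scanner output, whose intensity values Feature Extraction 9.5.1.1 had background-subtracted and corrected for trends. A table of log2 values that the authors made in GeneSpring GX was deposited too, with intensities floored at 1.0 and divided by the 75th percentile of the array. Here the same steps were run on the 43020 non-control spots, spots of a probe were averaged as log2 values, and a probe was taken as well above background where the software marked at least 50% of its spots so. Genes carry the names in the scanner output. Every gene of the rule is named, and list genes by role. For a gene above background on 1 array, the fold is a bound, set against the other array's detection limit (its lowest probe signal marked well above background) or the dim probe's signal if that is higher. Scaling over measured probes alone took that percentile over those probes that stood well above background on each array. The members and lists were chosen with earlier results of these data known. The median SD of a difference between spots of repeated probes was 0.0461. The number of arrays limits precision. The steps were tested on simulated data. Python 3.11.15 (numpy 2.4.6, pandas 2.3.3, matplotlib 3.10.9), R 4.3.3 and limma 3.58.1 were used.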

Additional observations from a re-analysis of the deposited data

How the results depend on the processing

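The median difference of the members was −0.39, and it was −0.13 with each array scaled to its median, −0.47 with scaling over measured probes alone, −0.46 with quantile normalization and −0.25 with no filter on dim probes. Median scaling shifted the median of all genes by 0.26 and the absence of a filter shifted it by −0.14. Members at least 2-fold brighter on array A numbered 0, but 2 with median scaling (Erap1 and Nlrc5), 1 with quantile normalization (Erap1) and 1 with the brightest probe of each gene (Nlrc5). At a 1.5-fold threshold 2 were brighter on array A. On array B the count was 5, but 2 with median scaling (H2-T24 and Tap2), 1 at a 3-fold threshold and 9 at a 1.5-fold threshold. It was 6 with scaling over measured probes alone (adding Tap1) and with no filter (adding H2-Q10), and 4 with quantile normalization and with normexp (without H2-M11). Of the 25 members, 20 kept their sign under the 13 alternatives run (12 for H2-T23, whose probe shares a run with that of H2-K1), and H2-D1, H2-K1, H2-Q6, H2-Q7 and Psme2 did not. H2-T24 and Tap2 were past 2-fold on array B under all 13, H2-T9 and H2-T10 under 12 and H2-M11 under 10. Of the 13, 6 changed the value of Tap2, H2-T9, H2-T10 and H2-M11 and 7 that of H2-T24, so the others say nothing of their stability. Naming probes by accession added H2-Q4 (−0.37). No paired analysis was possible because each cell line has 1 array. Signal over background limits H2-M11, H2-T24 and the dimmer Nlrc5 probe.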
